A study of Homo sapiens with 15 samples.

Results

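Infliximab exposure for 24 h was compared with the untreated state in THP-1 cells, across all 54613 probe sets of an Affymetrix human expression array that are not controls. The comparison uses 6 of the 15 arrays of the study directly, 3 of cells exposed to infliximab for 24 h (array numbers 5, 6 and 7) and 3 of untreated cells at 0 h (2, 3 and 4). THP-1 is an established human monocytic leukaemia line. Infliximab is a therapeutic antibody of the IgG1 class against tumour necrosis factor (TNF), and CDP870, the other agent of the study, is a pegylated antibody fragment against the same cytokine that has no Fc part. The remaining arrays are of cells exposed to infliximab for 6 h, to CDP870 for 6 h and to CDP870 for 24 h, with 3 arrays each. No label used here gives the dose of either agent. The untreated cells were taken at 0 h, so the drug and 24 h of culture cannot be told apart in the comparison with them. The CDP870 24 h arrays have the same time in culture and are given beside it. The design text names the arrays of each group as biological replicates and says no more about the cultures, so a p-value here reflects the variation among these samples, which may be partly technical.

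Cells that run short of an amino acid, or meet several other stresses, phosphorylate the initiation factor eIF2, which lowers protein synthesis in general while raising translation of the transcription factor ATF4. ATF4, with its C/EBP partners, is known to induce asparagine synthetase, amino acid transporters, aminoacyl-tRNA synthetases and feedback factors such as TRIB3 and CHAC1. A separate branch of the unfolded protein response, run by ATF6 and XBP1, is known to induce chaperones of the endoplasmic reticulum. TNF signals through the receptors encoded by TNFRSF1A and TNFRSF1B, and an intact antibody can also be bound by Fc gamma receptors on monocytic cells.

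The 3 infliximab 24 h arrays varied more among themselves than the arrays of any other group did. Within the group, an array's mean correlation with its replicates over the tested probe sets was 0.9736 to 0.9788, against 0.9846 to 0.9939 in the other groups. Array 5 had 107 probe sets lower by more than 2 log2 units than the mean of its 2 replicates, array 6 had 32 and array 7 had 1, against 0 to 2 in the other 12 arrays. Probe sets higher by as much numbered 24 on array 5, 2 on array 6 and 49 on array 7, against 0 on the other 12. On array 6 the poly-A spike-in RNAs read 3.20 log2 units lower at their 5′ than at their 3′ probe sets, where the other 14 arrays had a difference of 1.64 to 2.20 units. Its 5′ probe sets for ACTB and GAPDH were also the lowest relative to the 3′ ones (-0.27 and -0.24, log2). Whether these features had a part in any result was not tested. Untreated array 3 and infliximab 24 h arrays 5 and 6 lay apart on the second principal component (21.9% of the variance). Array medians were similar, from 2.93 to 3.07. The labelled cell type was checked with marker genes: 17 of 18 monocytic markers on the array were above the array median on all 15 arrays, and CD14 was above it on 2 arrays only. The measure separates cell types only in part. It was also met by 3 of 8 T cell, 3 of 6 B cell and 3 of 6 NK cell markers. Of 8 epithelial markers 6 were above the median on all 15 arrays, with a mean level of 5.62 to 5.63 on the infliximab 24 h arrays and 5.18 to 5.37 on the untreated arrays. Of these, 5 passed the test below as higher with infliximab, where 4.75% of all tested genes did. CDH1 and KRT14 were above the median on 0 arrays. The part of these markers in the results was not tested. In bulk RNA, fewer cells of a type and less RNA per cell cannot be told apart.

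**Figure D1:**
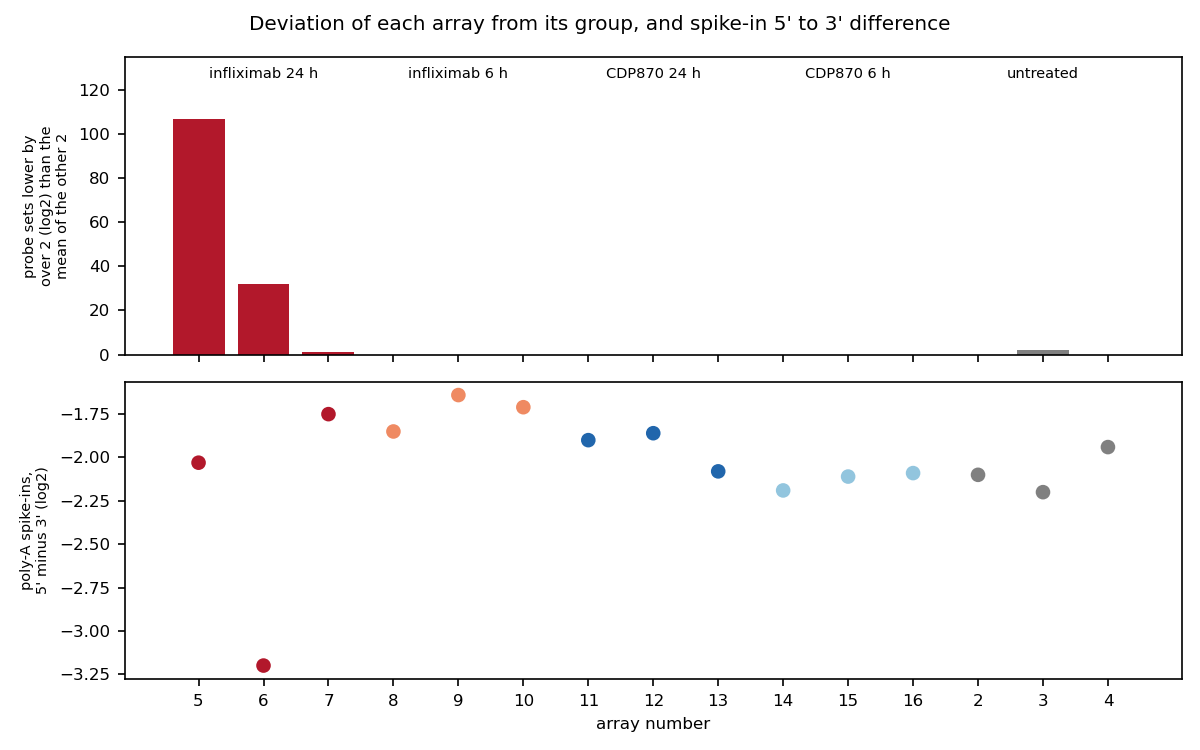
The upper bars count, for each array, the probe sets lower by over 2 log2 units than the mean of the other 2 arrays of its group. All probe sets that are not controls are counted, tested or not. The lower points give the log2 difference between 5′ and 3′ probe sets of the poly-A spike-ins. Infliximab 24 h array 5 stands out in the upper panel with 107 probe sets, and array 6 in the lower panel at -3.20.

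Infliximab for 24 h was accompanied by both increases and decreases, and most differences past 2-fold were increases. The test is limma's moderated test on the deposited log2 values, with an adjusted p (Benjamini-Hochberg over all probe sets tested) under 0.05 taken as a call, and a probe set was tested if it was above the array median on at least 3 of the 15 arrays. Of 28897 probe sets tested, 1899 passed (6.57%), with 1092 higher (3.78%) and 807 lower (2.79%). Those with a single gene symbol belong to 1392 genes, where a gene counts if any of its probe sets passed. Of the 855 such genes with 2 or more tested probe sets, 112 had all of them called. The difference was 2-fold or more for 151 higher probe sets, with 103 named genes among them, and for 3 lower probe sets. EIF5 is the only gene named among these 3, and not all of them carry a single gene symbol. The balance of higher to lower calls depends on the scaling, since 57.5% of the calls were higher on the values as deposited and 71.9% after each array was centred on its median. With the filter set at the 75th percentile the share was 51.4%, with 1116 higher and 1055 lower calls.

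The 3 arrays of infliximab 24 h agreed for nearly all calls. A call needs a difference that is large against the spread of the same values. The separation of called probe sets, here and in the gene lists below, is therefore largely set by their choice. Among the 1092 higher probe sets, 1074 (98.4%) had all 3 infliximab values above all 3 untreated values, and among the 807 lower ones 801 (99.3%) had all 3 below. In the remaining 18 and 6 probe sets the groups were separated on 2 of the 3 arrays, and no array lay on the opposite side of the untreated mean. Over all tested probe sets, called or not, the 3 arrays lay wholly above the untreated range in 8.67% and wholly below it in 10.5%. The median difference from the untreated mean among higher calls was 0.61 on array 5, 0.63 on array 6 and 0.55 on array 7. Among lower calls it was -0.42, -0.45 and -0.44. All 151 higher and all 3 lower probe sets past 2-fold had the groups fully separated.

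The largest difference between the group means of the called genes was in RPS6KA2, which encodes a ribosomal S6 kinase of the RSK family that acts downstream of ERK. Its probe set with the largest change read 5.93, 5.94 and 5.14 on infliximab 24 h arrays 5, 6 and 7, against 1.71, 2.06 and 1.67 on untreated arrays 2, 3 and 4. The groups do not overlap, which the choice of the largest increases required. The difference was 3.86 ± 0.20 on the log2 scale (SE of a fit to all 15 arrays with 1 shared spread). The SD of the 3 infliximab values was 0.46 and that of the 3 untreated values 0.21. The 3 untreated and 3 CDP870 24 h values all lie below the medians of their arrays, so the probe set was tested only because it was above the median in infliximab cells, and neither a fold nor its rank is firm. The probe sets of this gene disagree in size, since another rose by 1.32 and the last did not pass at 0.19. Of the 10 tested genes of the S6 kinase families, RPS6KA2 was the only one to pass, and 2 passed without infliximab array 7.

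On the probe sets used for them, 7 of the 20 largest increases have no untreated array above its median, namely RPS6KA2, CTH, INHBE, STC2, TBC1D30, LINC02806 and TMEM47. These 7 passed the filter on low values through infliximab arrays alone, which favours a difference, and the size of their differences and their places in the order are uncertain. GDF15 and P2RX7 were above the median on 1 untreated array each.

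Genes that supply amino acids were among the largest increases. ASNS, asparagine synthetase, read 8.82, 8.97 and 9.01 with infliximab at 24 h and 5.87, 5.65 and 5.59 untreated, a 9.38-fold increase (3.23 ± 0.11, adjusted p = 3.8e-10). The 3 infliximab arrays lay within 0.19 log2 units of each other, far from the untreated range. ALDH1L2, a mitochondrial folate enzyme, read 6.22, 6.53 and 6.38 against 3.29, 3.19 and 3.32 in untreated cells. CTH, which makes cysteine from cystathionine, read 4.75, 5.08 and 4.56 against 2.09, 2.17 and 1.76, and CBS, the enzyme before it in the same route, rose by 2.39, 2.01 and 1.61 on the 3 arrays. PCK2, the mitochondrial form of phosphoenolpyruvate carboxykinase, read 7.45, 7.17 and 7.19 against 5.24, 5.18 and 5.18. The serine synthesis gene PSAT1 had 9.03, 8.34 and 9.35 against 7.12, 6.90 and 7.14 on the probe set with its largest change, and 9.83, 10.04 and 9.92 against 8.14, 7.99 and 8.15 on its brightest one. For all of these genes each infliximab array exceeded each untreated array, which the choice of the largest increases required.

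Regulators and secreted factors made up much of the rest of the 20 largest increases. DDIT4, a stress-induced inhibitor of mTORC1, read 9.15, 9.09 and 9.06 with infliximab against 6.26, 6.46 and 6.45 untreated (2.71 ± 0.10, adjusted p = 8.55e-10), with the infliximab arrays only 0.09 apart. SESN2, a leucine sensor that also restrains mTORC1, rose by 2.20, 2.12 and 1.63 on arrays 5, 6 and 7. CHAC1, which degrades glutathione, rose by 2.84, 2.27 and 2.25. The angiogenic factor VEGFA had 7.37, 7.63 and 7.64 against 4.93, 4.78 and 5.06 (2.62 ± 0.17, adjusted p = 3.75e-07), and all 4 of its tested probe sets passed as higher. INHBE, an inhibin beta subunit, rose by 2.25, 2.53 and 2.84, and STC2, a secreted glycoprotein of the stanniocalcin family, by 2.40, 2.54 and 2.18. GDF15, a stress cytokine of the TGF-beta superfamily, rose by 1.87, 1.47 and 2.15 on 1 probe set and did not pass on the other (-0.10). P2RX7, an ATP-gated ion channel of monocytes and macrophages, had 4.72, 5.06 and 5.29 against 2.75, 3.24 and 2.94. Its other probe set did not pass at 0.55. TBC1D30 rose by 2.56, 2.59 and 1.62, TM6SF1 by 1.57, 1.70 and 2.65 and TMEM47 by 1.49, 2.12 and 1.80, and the non-coding RNA gene LINC02806 by 2.05, 2.55 and 2.04. ATF5, a transcription factor related to ATF4, also belongs to this group, and its arrays are described below because they differ most.

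**Figure D2:**
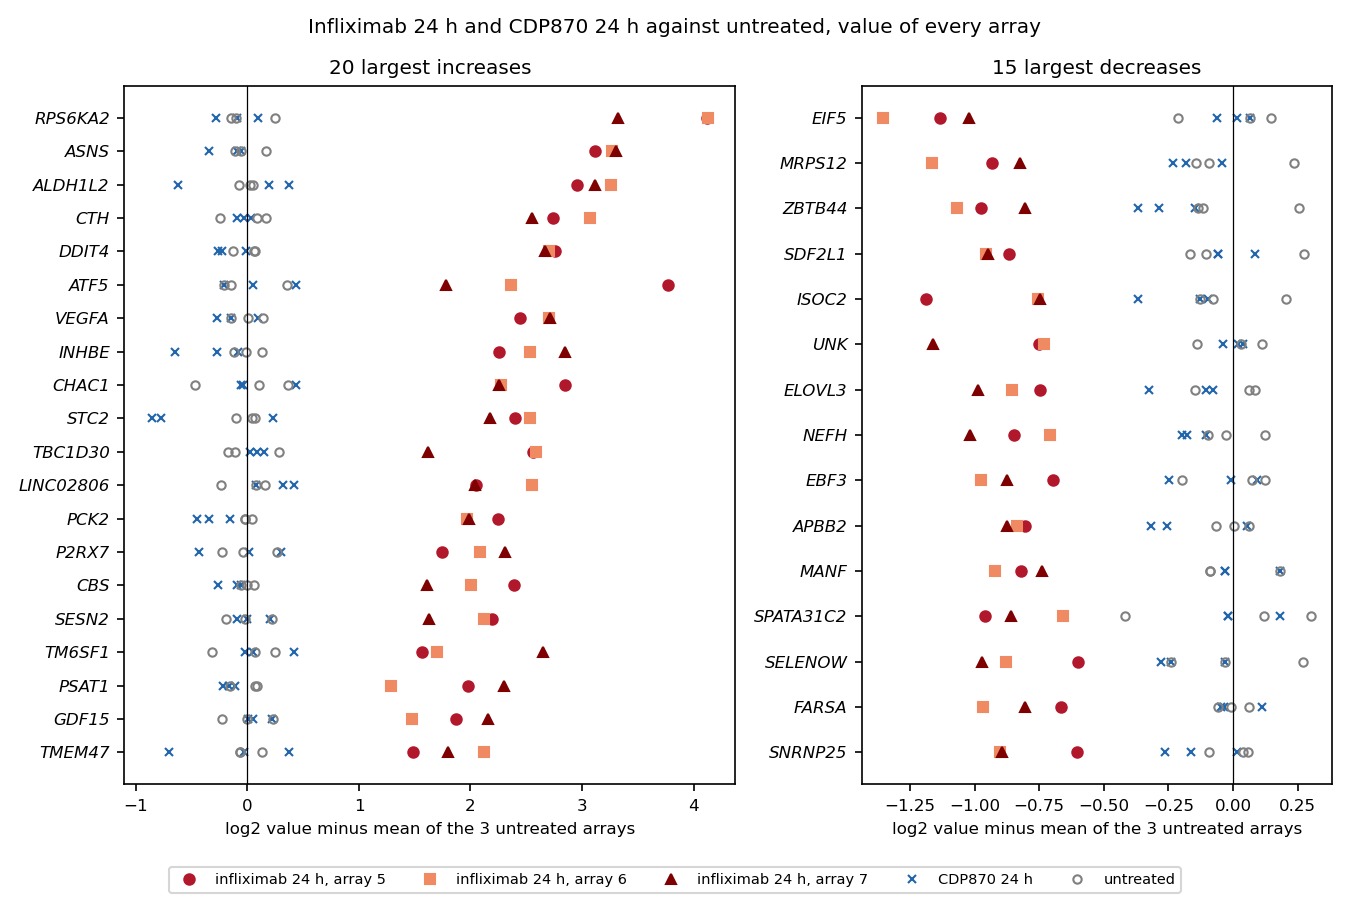
Each row is a gene and each mark an array, placed by its log2 value minus the mean of the 3 untreated arrays, for the 20 largest increases and the 15 largest decreases by the probe set with the largest change. All infliximab 24 h marks lie outside the untreated marks, which the choice of genes required. They run from 4.13 for RPS6KA2 on array 6 to -1.35 for EIF5, while the CDP870 24 h marks lie around the untreated ones.

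The promoters of these genes were searched for the C/EBP-ATF element, which ATF4 and C/EBP proteins can bind, because several of the genes are textbook targets of ATF4. The motif was written as TGATGNAA and looked for on both strands in the 250 bases before each gene's start in the RefSeq annotation of GRCh38.p14. It was present in 3 of the 16 increases that are in the promoter table (18.8%), in 0 of 13 decreases, and in 3.14% of all 35116 promoters there. The 3 promoters are shown 5′ to 3′ on the gene's own strand with the match in capitals. Counted before the gene's start, the match begins 68 bases away in ASNS (chr7:97872409-97872658, minus strand), 209 bases away in CHAC1 (chr15:40953221-40953470, plus strand) and 44 bases away in LINC02806 (chr1:148279018-148279267, plus strand).
ASNS: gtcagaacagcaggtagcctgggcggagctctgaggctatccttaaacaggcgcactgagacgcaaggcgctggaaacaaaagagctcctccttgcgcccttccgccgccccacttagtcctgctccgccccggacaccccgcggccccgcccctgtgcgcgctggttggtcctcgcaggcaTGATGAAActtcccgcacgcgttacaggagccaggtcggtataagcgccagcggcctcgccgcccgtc
CHAC1: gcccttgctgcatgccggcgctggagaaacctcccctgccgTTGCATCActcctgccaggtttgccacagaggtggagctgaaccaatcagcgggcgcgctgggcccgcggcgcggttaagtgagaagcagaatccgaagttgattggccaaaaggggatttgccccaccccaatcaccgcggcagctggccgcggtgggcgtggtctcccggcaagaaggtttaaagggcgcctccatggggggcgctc
LINC02806: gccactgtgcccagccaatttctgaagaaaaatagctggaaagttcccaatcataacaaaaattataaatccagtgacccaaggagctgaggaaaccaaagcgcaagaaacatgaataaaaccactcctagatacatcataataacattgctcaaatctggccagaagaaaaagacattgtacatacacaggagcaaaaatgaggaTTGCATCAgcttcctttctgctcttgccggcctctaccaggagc
In ASNS the match lies on the gene's own strand, as TGATGAAA, and in CHAC1 and LINC02806 on the other strand, as TGATGCAA. A match is a description of letters and shows no binding. Among genes of the lists described next, the motif was found in 2 of 8 promoters of the cytosolic tRNA synthetases that rose, in 2 of 6 of the amino acid synthesis genes that rose, in 1 of 5 of those not called and in 0 of 7 of the transporters that rose. It was also found in 2 of 8 regulators of the ATF4 pathway that were not called, against 1 of 8 that rose.

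The decreases were smaller, and EIF5 was the only named gene past 2-fold. EIF5 encodes the factor that triggers GTP hydrolysis by eIF2 at the start codon. Its probe set with the largest change read 7.66, 7.44 and 7.77 with infliximab at 24 h and 8.86, 8.58 and 8.94 in untreated cells (-1.17 ± 0.12, adjusted p = 3.71e-05). All 5 of its tested probe sets were called lower, from -1.17 to -0.61. MRPS12, a mitochondrial ribosomal protein, differed by -0.93, -1.16 and -0.82 on arrays 5, 6 and 7, and SDF2L1, part of a chaperone complex of the endoplasmic reticulum, by -0.87, -0.96 and -0.95. MANF, a secreted factor of the same compartment, had 7.83, 7.73 and 7.91 against 8.56, 8.83 and 8.56. FARSA, the catalytic subunit of the cytosolic phenylalanyl-tRNA synthetase, had 7.15, 6.85 and 7.01 against 7.76, 7.88 and 7.81. The small spliceosomal protein gene SNRNP25 differed by -0.80, the fatty acid elongase gene ELOVL3 by -0.86, the selenoprotein gene SELENOW by -0.82, the neurofilament gene NEFH by -0.86, the transcription factor gene EBF3 by -0.85, APBB2 by -0.84, ISOC2 by -0.90 and SPATA31C2 by -0.83. In each of these genes the 3 infliximab arrays lay below all 3 untreated arrays, which the choice of the largest decreases required. ZBTB44 (-0.95) and UNK (-0.88) were lower on 1 probe set only, and their other tested probe sets did not pass. Of 6 tested probe sets of APBB2 2 were called lower. The infliximab 24 h values of ZBTB44 all lay below the array medians.

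In the gene lists that follow each gene counts once, through whichever of its tested probe sets was brightest on average. By that rule 4.75% of 13607 genes were higher and 3.45% lower, with a median difference of -0.02 over all genes. Of 17 tested genes of amino acid synthesis 9 rose and 1 fell, with a list median of 0.41 (0.36, 0.37 and 0.39 on arrays 5, 6 and 7). Besides ASNS, PSAT1, CBS and CTH, these were PHGDH (1.50, 1.48 and 1.74), the first enzyme of serine synthesis, SHMT2 (0.86, 0.96 and 1.06), which turns serine into glycine in mitochondria, BCAT1 (0.55, 1.17 and 1.16), a branched-chain aminotransferase, PSPH (0.34, 0.37 and 0.52), the last enzyme of serine synthesis, and PYCR1 (0.75, 0.43 and 0.24), which makes proline. ALDH18A1, which makes the proline precursor, fell by 0.38, and this call was lost when infliximab array 5 or 6 or untreated array 2 or 4 was left out. PYCR1 was lost in the same 4 fits, and PSPH without untreated array 2 or 4. The 9 increases and the decrease had the groups fully separated. Among 9 tested folate enzymes MTHFD2, which provides one-carbon units in mitochondria, rose by 1.02, 1.41 and 1.54, as did ALDH1L2, while the cytosolic MTHFD1 fell by 0.33. The MTHFD1 call was lost without infliximab array 5 or 7 or untreated array 3 or 4.

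Of 19 tested amino acid transporters 8 rose and 2 fell, with a median of 0.40 (0.53, 0.43 and 0.24 on the 3 arrays). SLC7A11, the cystine carrier, read 7.18, 7.92 and 7.48 with infliximab against 6.08, 5.60 and 6.21 untreated. SLC7A5 and SLC3A2, the light and heavy chains of the large neutral amino acid carrier, rose by 1.35 and 1.08, and the neutral amino acid carriers SLC1A4, SLC38A1, SLC1A5 and SLC38A2 by 1.39, 1.10, 0.94 and 0.71. The cationic amino acid carrier SLC7A1 rose by 0.59. In all 8 the infliximab arrays exceeded every untreated array. SLC36A4 and SLC16A10 fell by 0.46 and 0.57, and both calls were lost without untreated array 2 or 4. SLC16A10 was also lost without infliximab array 6.

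The enzymes that charge tRNAs in the cytosol and in mitochondria form separate lists. Of 18 tested cytosolic tRNA synthetase genes 9 rose and 2 fell (median 0.43, and 0.36, 0.49 and 0.52 by array), whereas 0 of 15 mitochondrial ones passed in either direction (median -0.11). The difference between the lists was not tested. WARS1, for tryptophan, read 9.19, 9.34 and 9.39 with infliximab and 7.80, 7.67 and 7.73 untreated (1.57 ± 0.09, adjusted p = 1.7e-07). CARS1, for cysteine, rose by 1.23, and GARS1, the glycine enzyme that serves both compartments, by 1.19. The genes for the alanine, tyrosine, serine, threonine, glutamate-proline and isoleucine enzymes rose by 0.92 (AARS1), 0.84 (YARS1), 0.84 (SARS1), 0.74 (TARS1), 0.54 (EPRS1) and 0.50 (IARS1). Each of the 9 had all 3 infliximab arrays above all untreated ones. Both subunits of the phenylalanine enzyme, FARSA and FARSB, fell, by 0.81 and 0.45. FARSB was not called without infliximab array 5 or without untreated array 2 or 4. Among the mitochondrial enzymes the differences ran from -0.42 to 0.15.

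**Figure D3:**
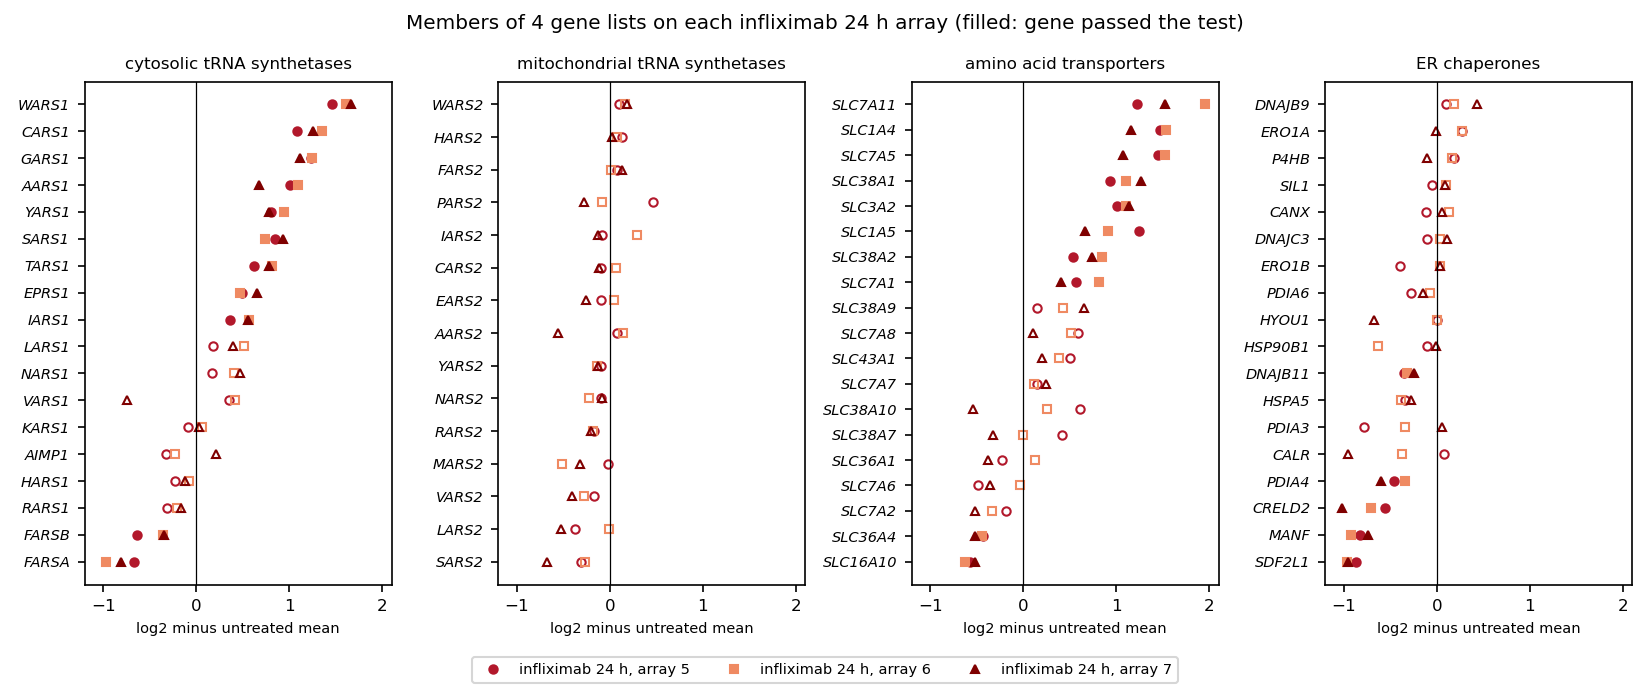
Each row is a tested gene of 1 of 4 lists and each mark an infliximab 24 h array, placed by its log2 value minus the mean of the untreated arrays, with filled marks for genes that passed the test. The mitochondrial tRNA synthetases have no filled mark and stay between -0.42 and 0.15 on average, while 9 of the 18 cytosolic ones have all 3 marks filled on the right.

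Of 18 tested regulators around ATF4 8 rose and none fell, with a median of 0.60 (0.47, 0.67 and 0.36 by array). ATF4 itself read 10.43, 10.34 and 10.52 with infliximab at 24 h, against 9.54, 9.64 and 9.47 untreated (0.88 ± 0.08, adjusted p = 1.19e-05). Its target and partner DDIT3 (CHOP) rose by 1.45, 1.34 and 1.37, and TRIB3, a pseudokinase that restrains ATF4, by 1.40, 1.42 and 1.64. JDP2, a bZIP repressor, rose by 1.65, 1.72 and 1.64, and the C/EBP factors CEBPB and CEBPG by 0.95 and 0.77. ATF5 and CHAC1 are the other 2. For each of the 8 all 3 infliximab arrays lay above the untreated range.

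Of 24 tested genes of mTORC1 sensing and control 4 rose and none fell (median 0.11). These were DDIT4, SESN2, MLST8, a core subunit of both mTOR complexes (1.35, 1.08 and 0.93), and EIF4EBP1, the translation repressor that mTORC1 phosphorylates (0.93, 1.03 and 1.09). Among 22 translation initiation factors, a list that also holds EIF4EBP1, EIF1 (0.28) and EIF3A (0.37) were the other increases, and EIF5 and the eIF2B subunit EIF2B3 (-0.43) the decreases. EIF4EBP1 was the only increase left without infliximab array 5 or without untreated array 2 or 4, and without infliximab array 7 the decreases numbered 4. Of 26 genes of autophagy and lysosomes 4 rose and none fell (median 0.17). The phosphoinositide-binding WIPI1 rose by 0.69, the adaptors SQSTM1 and NBR1 by 0.40 and 0.54, and the ATG8-family gene GABARAP by 0.53. This count was 1 without untreated array 2, 2 without infliximab array 5 and 7 without infliximab array 7.

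Of 15 targets of p53, 3 rose and none fell (median 0.07). TP53INP1, a stress protein, rose by 1.33, 1.78 and 1.05, GADD45A by 0.41 and the death receptor gene TNFRSF10B by 0.52, and TP53INP1 was the only one of the 3 left without infliximab array 6 or without untreated array 4. Of 17 apoptosis regulators 1 passed, the BH3-only gene BID, which fell by 0.39, and 1 gene was higher without any 1 of the infliximab arrays. Of 15 targets of NRF2, the regulator of antioxidant genes, SLC7A11 rose while GCLM (-0.71, -0.88 and -0.34), NQO1 (-0.42, -0.73 and -0.26) and PRDX1 (-0.55, -0.50 and -0.39) fell. Other tested NQO1 probe sets did not pass, at -0.49 and -0.08. The decreases numbered 2 without infliximab array 6, when 2 genes were higher, and 2 without untreated array 3. SLC7A11 is also an ATF4 target and stands in the transporter list too. All of these calls had the groups fully separated.

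Some chaperones were lower, while a few other genes of the unfolded protein response were higher. Of 18 tested chaperone and folding genes of the endoplasmic reticulum none rose and 5 fell (median -0.24). They were SDF2L1, MANF, CRELD2 (-0.56, -0.71 and -1.02), the disulphide isomerase gene PDIA4 (-0.46, -0.34 and -0.60) and DNAJB11 (-0.35, -0.32 and -0.24). CLGN, a chaperone of that compartment that is not in the list, was called higher (1.11) and is described below. HSPA5, the main Hsp70 of that compartment (BiP), read 9.45, 9.41 and 9.51 with infliximab and 9.83, 9.62 and 9.93 untreated on its brighter probe set, which was not called (-0.34, adjusted p = 0.0616). Its dimmer probe set was called lower, at 4.56, 4.55 and 4.68 against 5.14, 5.11 and 5.10 (-0.52, adjusted p = 0.00133). Both show the 3 infliximab arrays below the 3 untreated ones. Of 16 genes of the IRE1 and ATF6 branches and of degradation 4 rose and none fell: the sensor kinase ERN1 (0.77, 1.07 and 0.89), HERPUD1 (0.73, 0.67 and 1.04), XBP1 (0.64, 0.66 and 0.75) and EDEM1 (0.33, 0.79 and 0.24). EDEM1 and DNAJB11 each kept the call in 2 of the 6 fits that leave out 1 array, and DNAJB11 was also lost after median centring, with array weights and without the filter on low values. The ER stress element, searched as CCAAT and CCACG with 9 bases between them on both strands in the same 250 bases, was found in 1 of 5 promoters of chaperones that fell and in 5 of 12 of those not called, against 0.074% of all promoters.

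Of 14 heat shock chaperones of the cytosol and mitochondria none rose and 5 fell (median -0.26). HSPA4L differed by -0.69 and HSPE1, the mitochondrial Hsp10, by -0.56, and HSPH1, DNAJA1 and DNAJB1 by -0.55, -0.51 and -0.37. HSPE1 read 9.07, 9.25 and 9.28 with infliximab and 9.76, 9.77 and 9.76 untreated. The count was 3 without infliximab array 6 and 2 without untreated array 2 or 4, and it was 3 after median centring.

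Of 29 tested genes of glycolysis and hypoxia 14 rose and none fell (median 0.37, and 0.44, 0.44 and 0.28 by array). After VEGFA, these were led by the glucose transporter gene SLC2A3, at 6.83, 6.89 and 6.52 with infliximab against 4.87, 5.10 and 5.14 untreated (1.71 ± 0.16, adjusted p = 1.88e-05). ANKRD37, a hypoxia-induced gene, rose by 1.19, 1.12 and 1.15. Smaller increases were seen in the aldolase gene ALDOC (1.03), the growth-arrest gene NDRG1 (0.99), the pyruvate dehydrogenase kinase gene PDK1 (0.95), the fructose bisphosphate regulator PFKFB4 (0.90), the peptide hormone gene ADM (0.81), the mitophagy receptor genes BNIP3L and BNIP3 (0.75 and 0.66), the demethylase gene KDM3A (0.59), the hexokinase gene HK2 (0.54), the prolyl hydroxylase gene EGLN1 (0.37) and the glucose transporter gene SLC2A1 (0.37). The arrays agreed in direction for all 14. NDRG1 (1.35, 1.09 and 0.54) and PFKFB4 (1.31 on array 5 and 0.38 on array 7) were lowest on array 7. The count fell to 9 without infliximab array 6 or without untreated array 3 or 4. It was 4 when untreated array 3 and infliximab 24 h arrays 5 and 6, the arrays that stand apart, were all left out. Against CDP870 at the same time 13 of these 29 genes were higher. Of 9 secreted stress factors 4 rose, namely VEGFA, INHBE, STC2 and the EGF-family ligand HBEGF (0.48, 0.64 and 0.81).

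**Figure D4:**
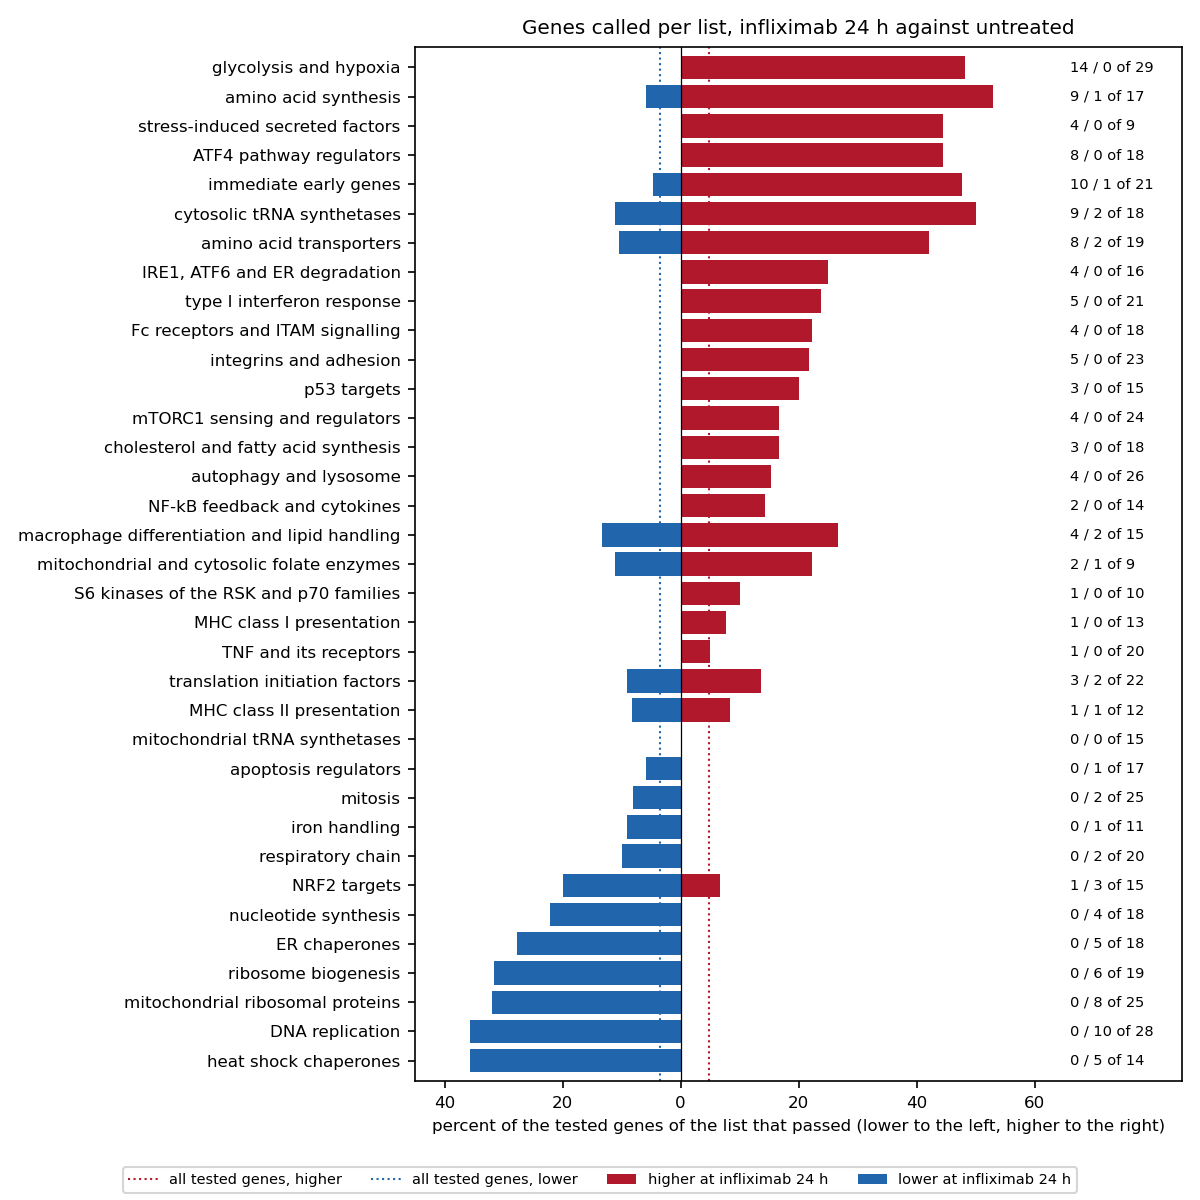
Bars give, for 35 gene lists, the percentage of tested genes called higher (right) and lower (left) at infliximab 24 h against untreated, with the counts higher / lower of tested genes beside them and dotted lines at the 4.75% and 3.45% of all genes. Amino acid synthesis, cytosolic tRNA synthetases and glycolysis and hypoxia extend farthest to the right, and heat shock chaperones and DNA replication farthest to the left.

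The target of the drug and its receptors did not pass. TNF read 4.61, 4.25 and 4.08 with infliximab at 24 h and 4.40, 4.20 and 3.77 untreated, which overlap (0.19 ± 0.19, adjusted p = 0.608). TNFRSF1A read 8.15, 7.98 and 7.35 against 7.64, 7.95 and 7.69, and TNFRSF1B 6.81, 6.72 and 6.28 against 6.17, 6.37 and 6.30 (adjusted p = 0.859 and 0.132). For both receptors arrays 5 and 6 lay above the untreated range and array 7 did not. Of 20 genes of this group 1 passed, the kinase gene IKBKB (0.50), and it was lost without infliximab array 5 or 6 or untreated array 2 or 3, while 3 genes passed without infliximab array 7. In 14 genes of NF-kB feedback and cytokines CCL2, a monocyte chemokine (0.42, 0.51 and 1.03), and IL18 (0.34, 0.85 and 0.61) rose and none fell. No untreated array was above its median for CCL2 (2.69, 2.58 and 2.65), so the size of its difference is uncertain. Infliximab array 5 of IL18, at 3.39, equalled the highest untreated value. The list had 0 calls without untreated array 2 or 4 and 1 without infliximab array 6 or untreated array 3.

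Among 18 tested Fc receptor and ITAM signalling genes 4 rose and none fell (median 0.26, and 0.43, 0.19 and 0.16 by array). The Src-family kinase genes FYN and FGR read 7.72, 7.98 and 7.61 against 6.27, 6.25 and 6.30 (FYN, 1.50 ± 0.10, adjusted p = 5.56e-07) and 7.01, 6.89 and 6.79 against 6.10, 6.04 and 6.28 (FGR). FCER1G, the signalling chain shared by activating Fc receptors, rose by 0.70, 0.47 and 0.81, and the phosphatase gene PTPN6 by 0.43. Of the fits that leave out 1 array, PTPN6 kept its call only in that without infliximab array 7, in which 6 genes of the list passed. The receptor gene FCGR2A did not pass and its groups overlap (0.07 ± 0.11, adjusted p = 0.759). FCGRT, the neonatal Fc receptor that recycles IgG, read 7.62, 7.42 and 7.50 against 7.11, 7.37 and 7.10. All 3 arrays were higher, but the gene did not pass against untreated cells (0.32 ± 0.09, adjusted p = 0.057) and did against CDP870 at 24 h (0.35, adjusted p = 0.0402).

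Of 23 integrin and adhesion genes 5 rose and none fell (median 0.18). ITGAL and ITGB2, the chains of the leukocyte integrin LFA-1, rose by 1.33 and 0.61, their anchor FERMT3 by 0.66, the chemokine receptor gene CCR1 by 0.51 and PECAM1 by 0.48. Among 21 genes of the type I interferon response there were 5 increases and no decrease (median 0.22). XAF1, an interferon-induced regulator of apoptosis, read 6.67, 6.43 and 6.32 against 5.39, 5.48 and 5.48, and the factors IRF7, IRF9 and IRF1 rose by 0.72, 0.39 and 0.43 and IFI35 by 0.49. The interferon count was 3 without infliximab array 5 and 2 without untreated array 2 or 4. HLA-DPA1 of MHC class II rose by 0.73 while CIITA, the class II activator, fell by 0.54. CIITA was not called without infliximab array 5 or 6 or untreated array 3 or 4, and class II increases numbered 3 without infliximab array 6 and 2 without untreated array 3. HLA-E was the only class I gene of 13 to pass (0.49), and 2 passed without infliximab array 7. Of 15 genes of macrophage differentiation and lipid handling PPARG (0.57), ABCA1 (0.52), LGALS3 (0.46) and CD9 (0.43) rose and LPL (-0.76) and FABP5 (-0.43) fell. PPARG was the only increase left without untreated array 2, and 2 were left without infliximab array 5 or untreated array 4. LPL was lost without infliximab array 5 or untreated array 2 or 4. Of 18 genes of cholesterol and fatty acid synthesis SREBF2, SREBF1 and SCD rose (median 0.14), and their count was 0 without infliximab array 5, infliximab array 6 or untreated array 2 and 1 without untreated array 4.

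Growth-related lists pointed in different directions. Of 21 immediate early genes 10 rose and 1 fell (median 0.35, and 0.46, 0.40 and 0.20 by array). EGR1 read 5.16, 5.50 and 4.86 with infliximab against 4.30, 4.01 and 4.17 untreated. It was called on 1 of its 3 tested probe sets, and the others differed by 0.20 and 0.50. Smaller increases followed, with KLF2 higher by 1.17, 0.71 and 1.03, KLF10 by 0.75, FOSL2 by 0.66, the phosphatase genes DUSP6 and DUSP5 by 0.51 and 0.49, IER3 by 0.53, KLF6 by 0.41, IER2 by 0.37 and MYC by 0.29, while DUSP2 fell by 0.54. The increases numbered 4 without infliximab array 5, infliximab array 6 or untreated array 2, and 6 without untreated array 4. The 4 kept in each of the 6 fits that leave out 1 array were EGR1, KLF2, KLF10 and FOSL2. Of 28 DNA replication genes none rose and 10 fell (median -0.23). POLE2, a subunit of DNA polymerase epsilon, read 5.46, 5.69 and 5.98 with infliximab against 6.74, 6.24 and 6.54 untreated, and the helicase subunit gene MCM4 read 8.19, 7.70 and 8.05 against 8.66, 8.57 and 8.77. MCM4 was called on 1 of its 5 tested probe sets, and the others ran from -0.79 to 0.09. All 4 genes of the GINS complex, which activates the replicative helicase, fell, by 0.42 (GINS3), 0.46 (GINS1), 0.40 (GINS4) and 0.36 (GINS2). The cyclin gene CCNE1 fell by 0.54, the origin-binding and loading factors ORC1 and CDC6 by 0.43 and 0.45, and CDC45 by 0.35. A second CDC6 probe set did not pass at -0.09. All 10 had the groups separated, and the count was 5 without untreated array 2. Of 25 mitosis genes 2 fell, CDC20 (-0.47) and CCNB1 (-0.44), and CCNB1 was not called without infliximab array 5 or untreated array 2 or 4. The other tested CCNB1 probe set did not pass at -0.08.

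Several lists of biosynthesis had small decreases and no increase. Of 19 ribosome biogenesis genes 6 fell (median -0.26), among them NOP16 (-0.48, -0.86 and -0.64), RRP9 (-0.50), the methyltransferase gene NOP2 (-0.41) and RRS1 (-0.39), and 3 were left without untreated array 4. Of 25 mitochondrial ribosomal protein genes 8 fell, led by MRPS12 (-0.60 on its brightest probe set) and MRPS7 (-0.50). That count was 2 without untreated array 3, 4 without infliximab array 6 or untreated array 2 and 5 without infliximab array 5. Of 18 nucleotide synthesis genes 4 fell, the pyrimidine enzymes UMPS (-0.51), DHODH (-0.41) and CTPS1 (-0.41) and the phosphoribosyl pyrophosphate synthetase gene PRPS1 (-0.38), with 2 left without infliximab array 5 or untreated array 2. Other tested DHODH probe sets did not pass, at -0.01 and -0.25. The ATP synthase genes ATP5MC1 (-0.49) and ATP5F1C (-0.33) fell among 20 respiratory chain genes, and ATP5F1C was not called without infliximab array 5 or 6 or untreated array 2. TFRC, the transferrin receptor, read 8.65, 9.10 and 8.70 with infliximab and 9.54, 9.38 and 9.62 untreated and was the only one of 11 iron genes to pass (-0.70).

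The arrays of infliximab at 24 h agreed in direction but not in size for a few of the called genes. ATF5 had the widest spread, with 8.97 on array 5, 7.57 on array 6 and 6.98 on array 7, against 5.06, 5.56 and 4.99 untreated. Its brightest probe set showed the same order with a narrower range (9.04, 8.51 and 8.23 against 6.06, 6.15 and 6.06), and its 2 other tested probe sets did not pass. ITGAL, with 7.87, 7.31 and 6.68 against 6.02, 5.93 and 5.93, was again highest on array 5, and PRAM1, a myeloid adaptor, had 6.79, 6.29 and 5.58 against 5.47, 5.57 and 5.22, so that array 7 lay just above the untreated range. The sterol regulators SREBF2 (7.48, 7.24 and 6.53 against 6.11, 6.35 and 6.38) and SREBF1 (6.27, 6.13 and 5.30 against 5.01, 5.38 and 5.06) were raised on arrays 5 and 6 and close to or within the untreated range on array 7. Array 6 was the low one for a second VEGFA probe set (5.82, 4.22 and 5.51 against 3.77, 3.69 and 3.63) and for 1 of the CARS1 probe sets (6.44, 5.09 and 6.15 against 4.64, 4.34 and 4.75), though the brightest probe set of each gene showed no such drop. It was also lowest on the other VEGFA probe sets (5.34, 4.29 and 5.06, and 6.43, 6.03 and 6.57). The same was seen on 1 probe set each of TRIB3 (8.03, 6.94 and 7.98), PSAT1 (9.03, 8.34 and 9.35) and WARS1 (8.15, 7.66 and 8.42). CLGN, a chaperone of the endoplasmic reticulum, was highest on array 7 (4.77, 5.06 and 6.01 against 4.22, 4.15 and 4.14) and was lost without that array or any 1 of the untreated arrays. Of the 6 fits that leave out 1 array, PRAM1 kept its call only in that without array 7.

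Among genes with no called probe set, the 5 with the largest mean differences owed them mainly to array 5. UTP18, a factor of ribosome biogenesis, read 1.64 on array 5, 5.15 on array 6 and 6.39 on array 7, against 6.03, 6.10 and 6.26 untreated (-1.74 ± 0.76, adjusted p = 0.206). FAM76B read 0.87, 5.80 and 6.60 against 5.98, 6.32 and 5.93. One probe set of HSP90B1, the endoplasmic reticulum form of Hsp90, read 3.10, 6.70 and 7.87 against 7.31, 7.30 and 7.51, and 1 of the splicing factor gene SFPQ 2.43, 5.06 and 6.75 against 6.15, 5.77 and 6.45. One of EEF1D, an elongation factor subunit, read 0.78, 5.16 and 5.58 against 4.91, 5.67 and 5.01. In all 5 genes array 5 was far below the untreated arrays and the other infliximab 24 h arrays, while array 7 was above the untreated mean. Array 6 was below that mean, by less than array 5, at -0.98 for UTP18, -1.06 for SFPQ and -0.67 for HSP90B1. For FAM76B and EEF1D it was at -0.28 and -0.04. Other probe sets of the same genes did not have such a drop on array 5, for example 8.15, 8.24 and 8.51 for UTP18 and 9.09, 9.05 and 9.08 for SFPQ, with the exception of a second EEF1D probe set (3.63, 6.25 and 6.43).

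**Figure D5:**
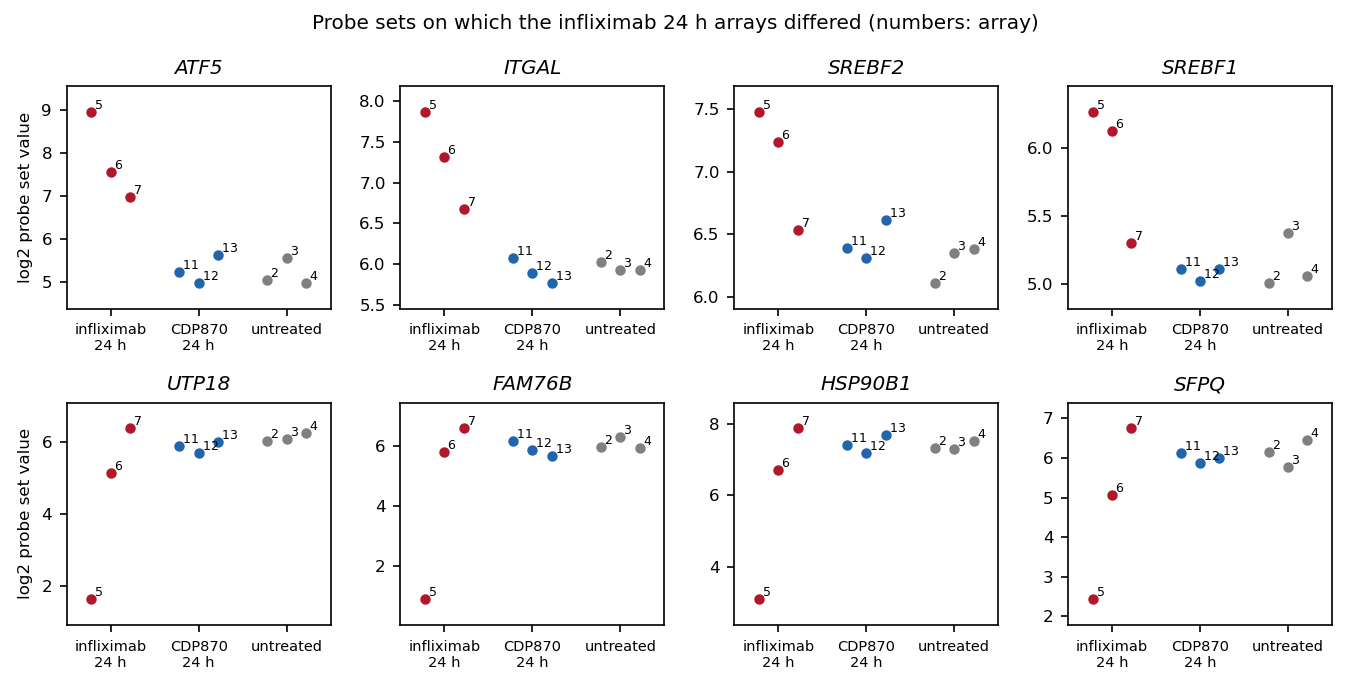
Log2 values of 8 probe sets on each infliximab 24 h, CDP870 24 h and untreated array, with the array number beside each point. In the upper row infliximab array 7 is the lowest of its group (6.98 for ATF5), and in the lower row array 5 is far below the other arrays (1.64 for UTP18).

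The 24 h state was also set beside the other infliximab time and beside CDP870 at 24 h, comparisons that share the infliximab 24 h arrays with the one above. Between 24 and 6 h of infliximab limma made 0 calls, with a lowest adjusted p of 0.3, although 3437 probe sets had an unadjusted p under 0.05. In simulated data for infliximab 24 h against untreated, 33.2% of the probe sets given a change of 0.5 log2 units were found. Those data had the same spread in every group, unlike the real arrays. The 2 infliximab times were not simulated. ASNS averaged 8.93 at both times. RPS6KA2 averaged 5.67 at 24 h and 4.85 at 6 h, a difference of 0.82 ± 0.20 that did not pass (adjusted p = 0.3). The 3 genes with the smallest p in each direction, none of which passed, were SLC19A1 (0.62), BCR (0.56) and KCNJ5-AS1 (0.69) as higher and SLC25A30 (-0.71), CCDC13 (-0.53) and TAPT1 (-0.56) as lower at 24 h.

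Infliximab at 24 h differed from CDP870 at 24 h in 1882 probe sets (6.51%), with 1366 higher (4.73%) and 516 lower (1.79%). Of the 1092 probe sets higher against untreated cells, 869 (79.6%) were also called higher against CDP870, and of the 807 lower ones 368 (45.6%) were also called lower. Among those higher by 2-fold or more it was 149 of 151. CDP870 at 24 h against untreated gave 0 limma calls, with 1359 probe sets at an unadjusted p under 0.05. ASNS had 5.65, 5.61 and 5.36 with CDP870 at 24 h, and DDIT4 6.38, 6.13 and 6.16, all within or below the untreated range. PCK2 and PSAT1 differed between the agents by 2.39 and 1.75, and the lower calls with the smallest p were EIF5 (-1.18), the dimmer probe set of HSPA5 (-0.71), MANF (-0.87), FARSA (-0.82), SDF2L1 (-0.91) and the nucleotide pyrophosphatase gene DCTPP1 (-0.68). DCTPP1 read 7.27, 7.23 and 7.30 with infliximab, 7.80, 7.94 and 8.11 with CDP870 and 8.06, 8.14 and 7.98 untreated. The cytosolic tRNA synthetases had 9 genes higher and 1 lower with infliximab than with CDP870, and the amino acid synthesis genes also 9 and 1, where 6.06% of all genes were higher and 2.14% lower.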

How the data were processed

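The authors deposited log2 probe set values of 15 arrays, for which GCRMA and GCOS 1.3.0 are named, without a role, per the submitters' processing notes. The normalization between arrays is not given in the sources used here, so differences between groups can be read and a single value has no unit of amount. Of 54675 probe sets 62 are controls. Gene names come from the platform annotation, updated through Entrez numbers (41037 of 41091 probe sets with 1 symbol matched RefSeq). Probe sets above the array's 50th percentile on at least 3 arrays were tested (28897 probe sets, 13607 genes). limma 3.58.1 in R 4.3.3 was fitted to all 15 arrays with 1 mean per group, and p-values were adjusted by Benjamini-Hochberg within each comparison. Errors of differences are standard errors of that fit. It uses 1 spread per probe set for all groups, and the infliximab 24 h arrays varied more than the others. Errors and p-values can therefore be too small for this group. Figures were drawn with matplotlib 3.10.9. The 35 lists, the motifs and the rule for named genes were chosen with earlier results of these data known. The rule takes the 20 largest increases and 15 largest decreases with fully separated groups, list members and the smallest p-values of the other 2 comparisons. It also takes the 5 called genes with the widest range at 24 h and the 5 largest differences of genes with no called probe set. The number of arrays limits the precision. Probe sets whose ID ends in _x_at or _s_at can take up related transcripts. In simulated data with 200 changed probe sets of 28897, for infliximab 24 h against untreated, 33.2%, 86% and 98.8% of changes of 0.5, 1 and 2 were found, 4.5% of calls were false, and an unchanged comparison gave 0 calls.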

Additional observations from a re-analysis of the deposited data

How the results depend on the processing

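Leaving out 1 of the 6 arrays in turn gave 1120 to 2620 calls in all (1899 with all arrays), 687 to 1654 higher and 433 to 966 lower, and 799 of the 1899 calls (42.1%) were kept in each of these 6 fits, among them all 35 of the largest increases and decreases. With each array weighted by its variation there were 1451 calls, 859 higher and 592 lower. A fit to the 6 arrays alone gave 200 calls, 181 higher and 19 lower, and 331 against CDP870 at 24 h. In that fit 122 of the 185 calls in named genes were lost. No call was left in DNA replication, mitosis, ribosome biogenesis, mitochondrial ribosomal protein, nucleotide synthesis, respiratory chain, heat shock or iron genes. The same held for autophagy, apoptosis, integrin, TNF, NF-kB, MHC class I, macrophage and cholesterol genes. Glycolysis and hypoxia kept 4 increases, immediate early genes 1 and the interferon response 1. Still higher were 6 amino acid synthesis genes and 6 cytosolic tRNA synthetases. Without untreated array 3 and infliximab 24 h arrays 5 and 6 there were 984 calls, 522 higher and 462 lower, with the 1 remaining infliximab array assumed to vary like the other groups. Median centring gave 522 lower calls (71.9% of calls higher, against 57.5%, and 90.5% with the 6 arrays alone). The cause of these moves was not tested, beyond the smaller number of arrays. No called probe set was called with the opposite sign in any setting compared. Uncalled genes did. Over the fits that leave out 1 array EEF1D ran from -2.23 to 0.17, FAM76B from -2.74 to 0.12, TNFRSF1A from -0.10 to 0.30 (also -0.01 without array 6) and FCGR2A from -0.01 to 0.19, and without arrays 5 and 6 and untreated array 3 EEF1D was 0.62, FAM76B 0.64, HSP90B1 0.46, SFPQ 0.45, UTP18 0.24, TNF -0.01 and TNFRSF1A -0.32. FCGR2A was -0.003 with the spike-in level as a covariate. Between 24 and 6 h of infliximab the count was 0 under every alternative run. No paired analysis was possible because each array of the series has a replicate number of its own, so that no number occurs in 2 groups.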
